A study of Mus musculus with 80 samples.

Results

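Mitosis and the G2/M transition are run by a set of genes that dividing cells transcribe together, and 41 of them were followed here through acute liver injury by carbon tetrachloride (CCl4) in mice with and without Adamts12. The 41 genes form a list chosen by name and function, with earlier results of these data known. All 41 were found by symbol among the 14560 genes of the deposited table. They comprised the cyclins Ccna2, Ccnb1 and Ccnb2 with their kinase Cdk1, the chromosomal passenger complex (4 genes), the mitotic entry kinases Aurka and Plk1, 7 genes of the kinetochore and spindle checkpoint, 5 kinesins, 4 other spindle proteins, 4 cytokinesis genes, 5 condensin subunits, 4 genes of anaphase and mitotic exit, and the proliferation markers Top2a and Mki67.

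Livers came from female C57BL/6J mice aged 8 weeks, either wild type or Adamts12-/-, a line lacking a secreted metalloprotease. Which exons of Adamts12 the line lacks is not stated in the labels. Each mouse received a single intraperitoneal injection of CCl4 (0.3 ml/kg, as a 3% v/v mix with olive oil) or of the vehicle olive oil alone, and livers were taken after 4 h, 12 h, 24 h or 7 days. The 16 groups held 5 livers each, 80 in all, numbered by the labels as separate mice, and each stranded mRNA library started from 500 ng of RNA. Values are read counts divided by a size factor per library, called normalized counts below. They rest on 18648557 to 64487370 reads per library.

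Adamts12 itself was at 23.6 ± 16.6 normalized counts in wild type livers (SD, n = 40) and at 8.23 ± 5.51 in knockout livers (SD, n = 38), with overlapping ranges. The genotypes differed by limma in CCl4 livers at 24 h (58.1 ± 18.4 against 11.45 ± 2.84, SD, n = 5 each, adjusted p = 0.0423) and in no other of the 8 groups of a time and treatment. In CCl4 livers at 12 h the means were 15.1 in wild type and 14.4 in knockout (adjusted p = 0.855). At 12 h, knockout CCl4 replicate 5 and knockout vehicle replicate 1 stood with the opposite treatment and were left out of every test unless stated. Prc1, a microtubule bundling protein of the central spindle, shows this. It was at 433 normalized counts in that vehicle library where its 4 companions ran from 23.1 to 39.6, and at 27.4 in that CCl4 library where its companions ran from 67.3 to 303. The defining hepatocyte markers were abundant in every group.

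In background, adult hepatocytes rarely divide, and after loss of cells by a toxin such as CCl4 they re-enter the cell cycle, pass through DNA synthesis and then mitosis. Cdk1 with cyclins A and B drives entry into mitosis, Aurora and Polo kinases build the spindle, condensins compact chromosomes, the spindle checkpoint holds anaphase until chromosomes are attached, and the anaphase-promoting complex with Cdc20 and the E2 enzyme Ube2c then destroys cyclin B. Many of these genes carry a cell cycle homology region (CHR) and CCAAT boxes in their promoters, through which the DREAM repressor and the activators B-Myb and FoxM1 act late in the cycle, so that their mRNAs tend to move as a group.

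Those promoter elements are shown for 6 of the genes the results turn on. The 41 genes lay on 17 chromosomes, at most 7 on any one. Promoter windows of 300 bases, from 250 bases before to 50 bases after the start of transcription, were found in the RefSeq table (build GRCm38.p6) for 35 of the 41. Ccna2, Kif20a, Tpx2, Aurkb, Smc4 and Incenp were not matched. The windows are Ccnb1 (chr13:100786437-100786736 on the minus strand), Ccnb2 (chr9:70421505-70421804 on the minus strand), Cdk1 (chr10:69352863-69353162 on the minus strand), Cdc20 (chr4:118437294-118437593 on the minus strand), Ube2c (chr2:164769679-164769978 on the plus strand) and Prc1 (chr7:80294201-80294500 on the plus strand), printed 5′ to 3′ along the gene, with capitals for TTTGAA, the core of the CHR, and CCAAT, each searched on both strands (TTCAAA and ATTGG).
Ccnb1: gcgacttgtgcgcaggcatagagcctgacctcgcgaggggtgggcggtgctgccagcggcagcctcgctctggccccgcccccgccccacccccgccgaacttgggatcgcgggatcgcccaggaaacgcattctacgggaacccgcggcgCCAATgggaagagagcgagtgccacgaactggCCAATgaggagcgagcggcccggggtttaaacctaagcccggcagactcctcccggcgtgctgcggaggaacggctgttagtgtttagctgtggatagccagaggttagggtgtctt
Ccnb2: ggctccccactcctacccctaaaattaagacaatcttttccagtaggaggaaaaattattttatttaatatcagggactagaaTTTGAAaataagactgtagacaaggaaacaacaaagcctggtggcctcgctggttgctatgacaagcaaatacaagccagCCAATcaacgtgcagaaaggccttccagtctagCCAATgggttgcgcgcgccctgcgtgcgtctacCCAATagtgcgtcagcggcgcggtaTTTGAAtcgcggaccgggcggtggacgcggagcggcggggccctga
Cdk1: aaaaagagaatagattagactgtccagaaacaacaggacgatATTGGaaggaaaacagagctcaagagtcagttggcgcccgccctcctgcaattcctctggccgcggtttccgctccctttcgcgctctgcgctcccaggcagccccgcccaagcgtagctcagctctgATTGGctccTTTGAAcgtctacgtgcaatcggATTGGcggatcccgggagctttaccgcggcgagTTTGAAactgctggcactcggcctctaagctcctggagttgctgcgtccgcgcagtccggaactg
Cdc20: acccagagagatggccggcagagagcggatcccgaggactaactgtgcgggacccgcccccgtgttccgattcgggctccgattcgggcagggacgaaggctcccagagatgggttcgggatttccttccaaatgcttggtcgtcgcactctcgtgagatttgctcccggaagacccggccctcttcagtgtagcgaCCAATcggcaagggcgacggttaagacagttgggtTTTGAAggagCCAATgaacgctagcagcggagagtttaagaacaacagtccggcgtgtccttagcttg
Ube2c: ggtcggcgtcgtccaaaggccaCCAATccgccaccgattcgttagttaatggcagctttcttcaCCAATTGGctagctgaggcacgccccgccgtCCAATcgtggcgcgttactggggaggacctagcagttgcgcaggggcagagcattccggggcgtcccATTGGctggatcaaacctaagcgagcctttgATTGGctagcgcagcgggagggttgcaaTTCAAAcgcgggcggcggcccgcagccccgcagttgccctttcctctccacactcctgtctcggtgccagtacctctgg
Prc1: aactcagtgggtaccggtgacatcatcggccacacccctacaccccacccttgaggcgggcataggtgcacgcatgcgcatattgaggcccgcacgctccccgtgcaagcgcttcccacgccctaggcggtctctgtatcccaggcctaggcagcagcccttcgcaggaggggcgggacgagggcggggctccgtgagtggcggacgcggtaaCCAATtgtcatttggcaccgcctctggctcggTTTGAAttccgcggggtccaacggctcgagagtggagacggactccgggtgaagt
TTTGAA was present for 28 of the 35 matched genes (80%), and among all genes of the table for 20.2% (17.9% of its 32851 promoters). CCAAT was present for 26 of the 35 (74.3%), against 41.1% of all genes and 37.4% of all promoters. Both were present for 23 of the 35 (65.7%), against 7.97% of all genes and 6.95% of all promoters. Ccnb1, one of the most variable genes below, held 2 CCAAT boxes and no TTTGAA. The others without TTTGAA in this window were Birc5, Bub1, Cenpe, Ncaph, Nuf2 and Nusap1. A match of letters is a description of the sequence only.

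Across all livers, the highest levels of the mitotic genes were in mice that had received only the vehicle, 7 days after injection. Summed over the 41 genes, wild type vehicle livers held a median of 1226 normalized counts at 4 h, 1610 at 12 h, 1118 at 24 h and 6423 at 7 days. Wild type CCl4 livers held 1775, 1405, 2114 and 2433 at the same times. Knockout vehicle livers held 1516, 1571, 1166 and 2914, and knockout CCl4 livers 1974, 1521, 1825 and 2317. The vehicle level therefore did not stay constant, and each CCl4 difference below is read against a vehicle level that itself moved with time. In bulk tissue, more dividing cells and more mRNA per dividing cell cannot be told apart.

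**Figure D1:**
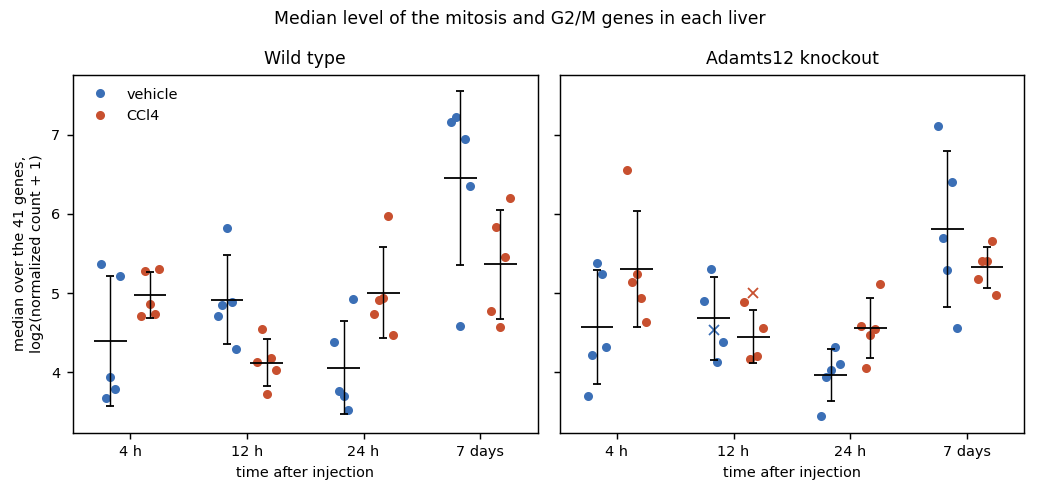
Median over the 41 mitosis and G2/M genes, log2(normalized count + 1), in each liver (points) by time after injection, for vehicle (blue) and CCl4 (red), with the group mean and SD (black) and the 2 libraries left out of the tests as crosses. Vehicle livers at 7 days reach the highest medians in both genotypes and are spread from 4.58 to 7.22 in wild type and from 4.56 to 7.11 in knockout.

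The rise in vehicle livers between 24 h and 7 days reached nearly the whole list. In wild type 40 of the 41 genes were higher at 7 days (limma, adjusted p under 0.05), where 2.78% of all 14558 genes tested were higher, with a median log2 difference of 2.22 over the list and -0.01 over all genes. In knockout 35 of the 41 were higher, where 6.66% of all genes were higher, with a median of 1.67 against 0.01 over all genes. None of the 41 was lower in either genotype, where 2.74% of all genes were in wild type and 9.75% in knockout. All 35 genes called in knockout were among the 40 called in wild type (87.5% of these). With 40 of 41 called in wild type, this overlap was nearly fixed beforehand and says little about the genotypes. Whether the rise differed between the genotypes was not tested.

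All 4 mitotic exit genes rose in both genotypes. Cdc20, the activator of the anaphase-promoting complex, was at 12.2, 12.6, 5.44, 2.26 and 24.5 normalized counts in the 5 wild type vehicle livers at 24 h. At 7 days it was at 460, 370, 24.0, 403 and 189. Replicate 3 at 7 days lay inside the 24 h range, and the other livers lay far above it. The log2 difference was 4.34 ± 0.64 (SE, limma, adjusted p = 3.32e-06). In knockout livers Cdc20 went from 7.69, 14.3, 19.2, 13.9 and 4.51 to 550, 105, 44.9, 306 and 34.2, with no overlap (3.40 ± 0.64, adjusted p = 9.06e-05). Ube2c, which works with Cdc20, rose by 2.91 ± 0.55 in wild type and 2.10 ± 0.55 in knockout. Espl1, the separase that cuts sister chromatids apart, rose by 2.26 ± 0.51 and 1.89 ± 0.51, and Cdca3, a trigger of mitotic entry, by 1.78 ± 0.40 and 1.51 ± 0.40.

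The cyclins and Cdk1 rose in both genotypes, all 4 genes in each. Ccnb1, cyclin B1, was at 6.64, 2.52, 6.53, 5.27 and 7.34 normalized counts in wild type vehicle livers at 24 h and at 170, 150, 14.2, 149 and 69.2 at 7 days. Every 7 day liver was above every 24 h liver, and replicate 3 was again the lowest. The log2 difference was 3.72 ± 0.62 (adjusted p = 3.63e-05). In knockout livers Ccnb1 was at 4.40, 4.77, 10.3, 2.53 and 10.8 at 24 h and at 235, 43.3, 18.3, 87.4 and 20.4 at 7 days (2.93 ± 0.62, adjusted p = 0.000474), also without overlap. The annotation lists a pseudogene copy of Ccnb1 and of Ccnb2, so the assignment of their reads is less certain than for other members. Cdk1 was at 29.9, 22.6, 26.1, 15.8 and 70.9 at 24 h in wild type and at 259, 247, 32.8, 230 and 120 at 7 days. Its groups overlapped through the high replicate 5 at 24 h and the low replicate 3 at 7 days (2.26 ± 0.39, adjusted p = 7.05e-05). In knockout Cdk1 went from 28.6, 33.4, 42.3, 40.5 and 36.1 to 286, 80.9, 46.5, 158 and 45.1 (1.38 ± 0.39, adjusted p = 0.0101), without overlap. Ccnb2 rose by 2.62 ± 0.59 in wild type and 2.27 ± 0.59 in knockout, and Ccna2, cyclin A2, by 2.64 ± 0.49 and 1.99 ± 0.49.

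Among the mitotic kinases, Plk1 rose by 3.87 ± 0.62 in wild type (adjusted p = 2.03e-05) and by 2.84 ± 0.62 in knockout (adjusted p = 0.000782). Its wild type values were 14.4, 3.35, 0, 5.27 and 11.4 normalized counts at 24 h and 142, 120, 18.6, 143 and 71.4 at 7 days, with no overlap. The value of 0, in replicate 3 at 24 h, allows up to 3.27 normalized counts at that depth. Aurka rose by 1.82 ± 0.42 and 1.55 ± 0.42. Aurkb, the kinase of the chromosomal passenger complex, was at 22.1, 13.4, 5.44, 7.52 and 32.6 in wild type at 24 h and at 85.7, 95.6, 24.0, 104 and 55.8 at 7 days (2.20 ± 0.57, adjusted p = 0.00934), and the groups overlapped. In knockout it was at 9.89, 3.18, 16.7, 24.1 and 12.6 and then 123, 33.9, 15.0, 46.6 and 10.9, which overlapped and was not called (1.43 ± 0.57, adjusted p = 0.0702). Of its partners, Birc5 (survivin) rose by 1.75 ± 0.51 in wild type and 1.97 ± 0.51 in knockout, and Cdca8 (borealin) by 1.44 ± 0.29 and 1.67 ± 0.29. Incenp, the scaffold of the complex, rose by 0.86 ± 0.27 in wild type and was not called in knockout (0.36 ± 0.27, adjusted p = 0.394).

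All 7 kinetochore and checkpoint genes rose in wild type, and 6 of 7 in knockout, where Bub1 was not called (1.11 ± 0.58, adjusted p = 0.189). The outer kinetochore protein Cenpf rose most of these in wild type, by 3.35 ± 0.61, and the checkpoint kinase Ttk by 2.94 ± 0.64. In knockout Cenpf rose by 3.12 ± 0.61 and Ttk by 3.03 ± 0.64. Bub1b, which encodes the checkpoint protein BubR1, was at 26.6, 23.5, 18.5, 24.8 and 29.4 normalized counts at 24 h and 116, 153, 38.2, 113 and 80.5 at 7 days in wild type, without overlap (1.86 ± 0.36, adjusted p = 0.000377). The smallest rise of the 7 in wild type was this one, and the largest was more than 3 log2 units.

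The spindle proteins rose with the kinetochore genes. Hmmr, a spindle assembly factor, rose by 3.36 ± 0.70 in wild type and by 4.11 ± 0.70 in knockout, the largest difference of any member there. Prc1 was at 19.9, 8.38, 6.53, 8.28 and 38.3 normalized counts in wild type at 24 h and at 204, 215, 25.1, 164 and 130 at 7 days (3.10 ± 0.55, adjusted p = 9.73e-05). Replicate 3 at 7 days lay within the 24 h range. In knockout Prc1 went from 3.30, 6.36, 15.4, 24.1 and 19.0 to 196, 65.8, 41.6, 113 and 22.6 (2.50 ± 0.55, adjusted p = 0.000846), overlapping through replicate 5 at 7 days. Tpx2, an activator of Aurora A, rose by 3.16 ± 0.52 and 1.57 ± 0.52, and Nusap1 by 2.67 ± 0.50 and 2.36 ± 0.50.

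Of the 5 kinesins 4 rose in wild type and 3 in knockout. Kif20a, a motor of cytokinesis, was at 34.3, 24.3, 31.6, 24.8 and 33.4 normalized counts at 24 h in wild type and at 378, 324, 42.6, 277 and 127 at 7 days, without overlap (2.57 ± 0.45, adjusted p = 7.05e-05). Kif11, the motor that separates spindle poles, was at 15.5, 26.8, 15.2, 16.6 and 22.8 and then 103, 96.6, 16.4, 67.3 and 53.0 (1.54 ± 0.39, adjusted p = 0.009), with replicate 3 inside the 24 h range. In knockout Kif20a rose by 2.00 ± 0.45 and Kif11 was not called (0.74 ± 0.39, adjusted p = 0.202). Kif23, the central spindle motor, was the single member not called in wild type (1.17 ± 0.47, adjusted p = 0.149) and was not called in knockout (0.86 ± 0.47, adjusted p = 0.219). Kif2c rose by 2.83 ± 0.56 and 2.09 ± 0.56, and Kif4 by 2.16 ± 0.48 and 1.35 ± 0.48.

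The cytokinesis genes Anln, Ect2 and Racgap1 rose in both genotypes, from 1.46 ± 0.39 for Ect2 in knockout to 2.55 ± 0.51 for Racgap1 in knockout. Cep55, an abscission protein, rose by 1.81 ± 0.49 in wild type and was not called in knockout (0.90 ± 0.49, adjusted p = 0.213). All 5 condensin genes rose in both genotypes, with the lowest median of any role, 1.04 in wild type and 1.05 in knockout. Smc4, a core ATPase of condensin, was at 258, 296, 304, 272 and 316 normalized counts in wild type at 24 h and at 594, 670, 254, 557 and 401 at 7 days. All but replicate 3 were above the 24 h livers (0.70 ± 0.15, adjusted p = 0.00179). In knockout Smc4 rose by 0.59 ± 0.15 (adjusted p = 0.00491).

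Top2a, the topoisomerase that untangles sister chromatids, was at 91.9, 45.3, 40.3, 30.9 and 114 normalized counts at 24 h and 326, 528, 65.6, 359 and 247 at 7 days in wild type (2.13 ± 0.45, adjusted p = 0.00104). In knockout it went from 20.9, 28.6, 37.2, 62.1 and 88.5 to 328, 154, 130, 254 and 66.2 (1.94 ± 0.45, adjusted p = 0.0015). The overlap came from replicate 3 in wild type and replicate 5 in knockout. Mki67, which coats mitotic chromosomes and is the usual proliferation marker, rose by 2.55 ± 0.44 and 1.57 ± 0.44.

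**Figure D2:**
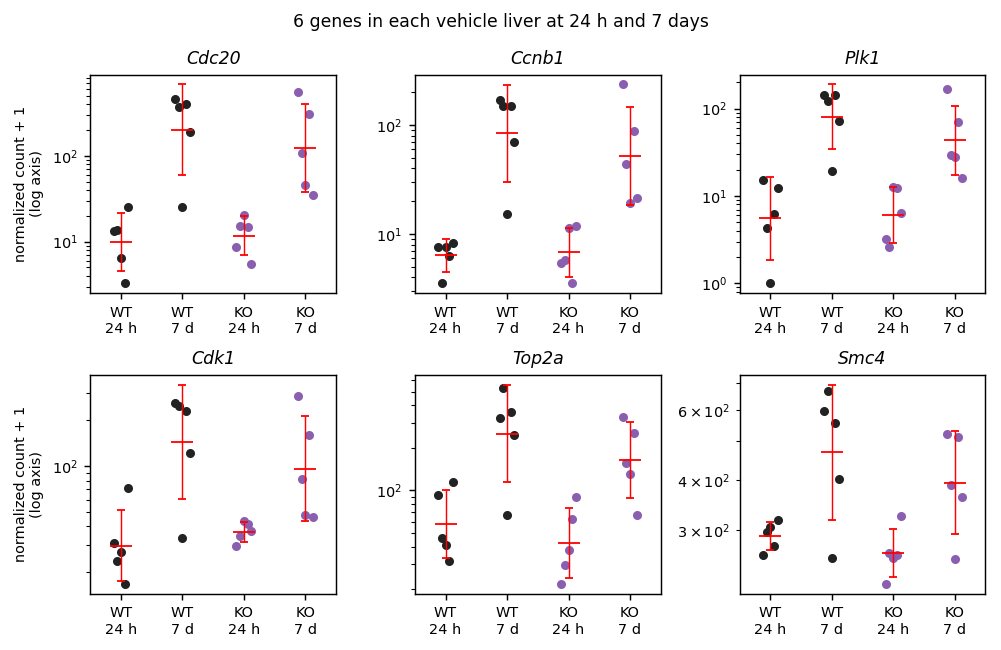
Cdc20, Ccnb1, Plk1, Cdk1, Top2a and Smc4 in each vehicle liver at 24 h and 7 days (points, normalized count + 1 on a log axis), wild type in black and knockout in purple, with the mean and SD of log2 values in red. In wild type 4 of 5 livers at 7 days are above every 24 h liver and replicate 3 is low for every gene shown. The margin is small for Smc4. In knockout replicate 1 is the highest at 7 days and replicates 3 and 5 are the lowest for every gene shown.

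The 7 day livers were not alike within a group. Wild type replicate 3 was the lowest of its group for 41 of 41 genes, with a sum of 1548 normalized counts against 4145 to 7805 in the other livers. Knockout replicate 1 was the highest of its group for 40 of 41 genes, with a sum of 7442 against a group median of 2914. In knockout livers the B cell markers moved with this: 5 of 5 were higher at 7 days than at 24 h, their summed level being 2938 normalized counts in replicate 1, from 316 in the lowest liver of that group, and 141 to 291 at 24 h. Without replicate 1, 26 of the 41 genes were called, all of them among the 35, with a median difference of 1.38. Of 8 monocyte and macrophage markers 2 rose in knockout, with sums of 2025 to 22487 at 7 days (10568 in replicate 1 and 22487 in replicate 2) against 1251 to 3524 at 24 h. The part of either marker list in the rise was not tested. In wild type 0 of 5 B cell markers were called in this comparison (limma, 0 at unadjusted p under 0.05), with sums of 403 to 590 at 7 days and 254 to 509 at 24 h, and 0 of 8 monocyte and macrophage markers (1 at unadjusted p under 0.05). Other marker lists did move. In wild type 2 of 5 neutrophil and 2 of 7 hepatocyte markers were lower at 7 days, and in knockout 1 of 5 and 3 of 7. These counts stand beside the shares of all genes lower given above for this step. Their part in the rise was not tested either.

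The mouse numbers in the labels also moved with these groups in wild type, and they were unbalanced between treatments. At 12 h, 2 of 5 CCl4 mice and 0 of 5 vehicle mice had numbers below 7000. At 24 h it was 0 of 5 and 4 of 5, and at 7 days 4 of 5 and 2 of 5. Of the 5 wild type vehicle mice at 24 h, 4 had numbers below 7000, and their sums over the 41 genes were 1255, 1118, 1030 and 1047 normalized counts against 1820 in the remaining mouse. At 7 days the 2 mice with such numbers had sums of 7442 and 7805 and the other 3 had 1548, 6423 and 4145. What the numbers stand for is not given. Without the 12 wild type mice numbered below 7000, a single liver remained at 24 h, and 0 of the 41 genes were called in wild type, with a median difference of 0.78 and 40 of 41 above 0. No knockout mouse had a number below 7000, and there 35 of 41 were called.

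From a list of other G2/M genes, 22 of 35 rose from 24 h to 7 days in wild type vehicle livers and 18 of 35 in knockout. The counts in this paragraph are to be read beside the shares of all genes higher and lower given above for the same step. Ckap2, a spindle microtubule protein, rose by 3.98 ± 0.56 and 3.07 ± 0.56, and Stmn1 (stathmin) by 2.02 ± 0.33 and 1.61 ± 0.33. Cenpa and Mastl in wild type, and Pbk and Mad2l1 in knockout, completed the 4 smallest adjusted p in each genotype. Of 26 S phase genes, 4 rose in wild type (Mcm3, Rrm2, Tyms and Mcm7, by 0.45 to 1.28) and 6 in knockout, led by Tyms, Mcm3, Rrm1 and Pcna. Among 19 regulators of the programme, Foxm1 (2.18 ± 0.48) and Trp53 (0.58 ± 0.12) rose in wild type. In knockout 4 rose and 3 fell, of which Cdkn1a, the p21 inhibitor of cyclin-dependent kinases, fell by 2.39 and the repressor E2f8 by 2.16. Trp53 rose by 0.47 ± 0.12 and Rbl1 by 0.92 ± 0.24 there.

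Earlier in the vehicle course few members moved. Between 4 h and 12 h only Aurka was called, in wild type (1.51 ± 0.42, adjusted p = 0.00799), where 16.4% of all genes were called, and it was not called without replicate 4 at 4 h (1.07, adjusted p = 0.0827). In knockout 0 of 41 were called by limma (1 at unadjusted p under 0.05), where 18% of all genes were. Between 12 h and 24 h Cdc20 (-2.25 ± 0.64), Plk1 (-2.13 ± 0.62) and Kif20a (-1.36 ± 0.45) fell in wild type, where 4.57% of all genes fell, and Hmmr in knockout (-2.63 ± 0.74, adjusted p = 0.0485), where 0.783% of all genes fell. No call between 12 h and 24 h remained in wild type without vehicle replicate 3 at 12 h, which was the highest of its group for 33 of 41 genes, or without replicate 3 at 24 h. The Hmmr call in knockout was lost without any single liver of the pair of groups except replicate 5 at 24 h, and with a pseudocount of 8. Over the 4 vehicle times together, 41 of 41 members changed in wild type and 34 of 41 in knockout, where 38.9% and 41.7% of all genes did. Without the mice numbered below 7000 the wild type count was 10, and without replicate 1 at 7 days the knockout count was 21.

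Against this background, the CCl4 differences were smaller and changed direction with time. At 12 h in wild type 20 members were lower and 3 higher with CCl4, at 24 h 15 were higher, and at 4 h and 7 days few were called.

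**Figure D3:**
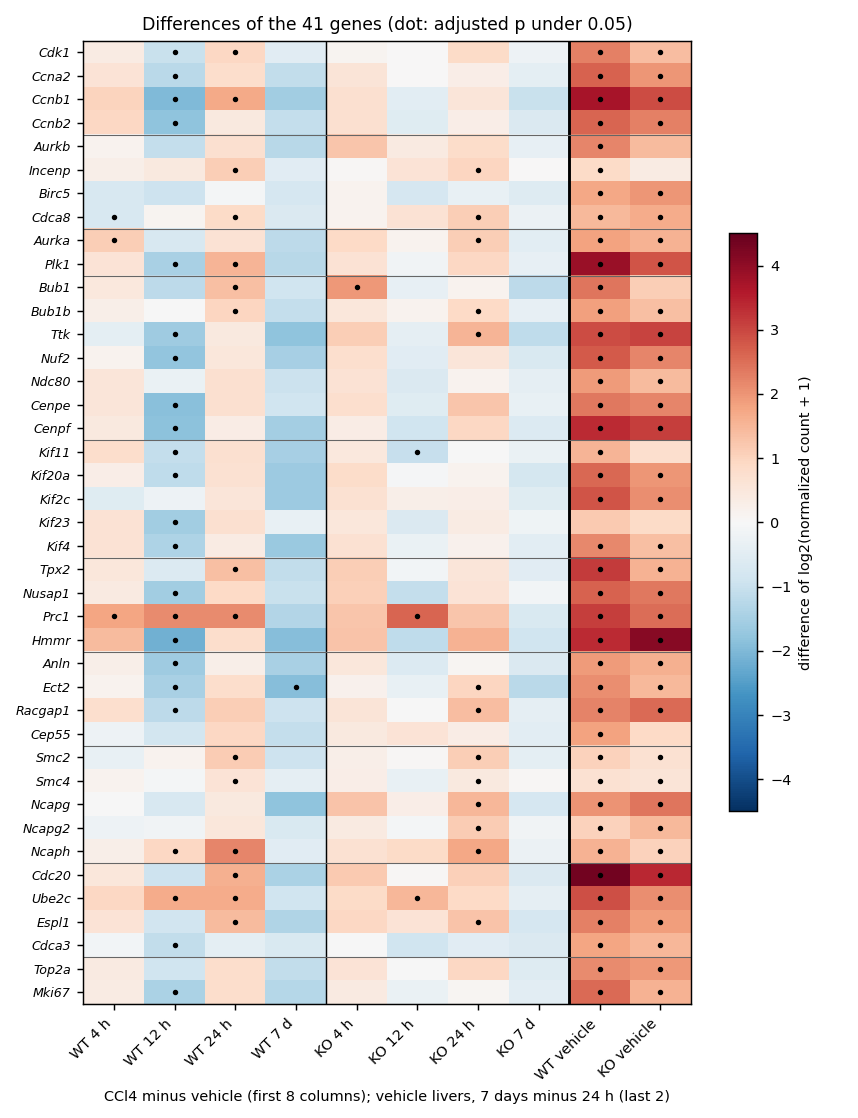
Difference of log2(normalized count + 1) for each of the 41 genes, grouped by role, for CCl4 minus vehicle at each time in wild type and knockout and for vehicle livers at 7 days minus 24 h, with a dot where the adjusted p was under 0.05. The 12 h column of wild type is mostly blue, with 6 genes above 0, of which Prc1, Ube2c and Ncaph were called. The 2 vehicle columns are red throughout.

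At 4 h, 2 members were higher and 1 lower in wild type, where 23.1% of all genes were higher and 20.5% lower. Prc1 was at 38.9, 7.07, 17.1, 4.82 and 58.8 normalized counts in vehicle livers and at 63.8, 81.9, 44.6, 72.3 and 53.7 in CCl4 livers (1.78 ± 0.55, adjusted p = 0.00627). One vehicle liver overlapped the CCl4 range. Aurka rose by 1.10 ± 0.42 (adjusted p = 0.0284), and Cdca8 fell by 0.71 (adjusted p = 0.0424). In knockout Bub1 rose by 1.95 ± 0.58 (adjusted p = 0.00525) and was the sole member called, where 21.1% of all genes were higher and 17.7% lower. It ran from 0 to 10.6 normalized counts in vehicle livers and from 3.77 to 29.6 with CCl4, which overlapped. Its vehicle median of 3.53 was near the level of 3 reads, which ran from 1.16 to 6.02 over the libraries. Knockout CCl4 replicate 1 was the highest of its group for 36 of 41 genes.

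At 12 h the wild type livers showed a fall across most roles. Mice numbered below 7000 gave 2 of the 5 CCl4 livers and 0 of the 5 vehicle livers here. Of the 41 genes 20 were lower with CCl4, where 29.4% of all genes were lower, and 3 were higher, where 29% of all genes were higher. The median difference was -1.06 on the log2 scale over the list and -0.05 over all genes. Without vehicle replicate 3, the liver highest of its group for 33 of 41 genes, 13 were lower, and Cdk1, Ccna2, Plk1, Ttk, Kif20a, Racgap1 and Cdca3 were no longer called. All 4 cyclin and Cdk1 genes fell when it was kept. Ccnb1 was at 22.0, 19.1, 66.6, 13.4 and 11.9 normalized counts in vehicle livers and at 6.33, 7.62, 5.34, 1.71 and 4.38 in CCl4 livers, with no overlap (-1.99 ± 0.62, adjusted p = 0.00451). Cdk1 was at 50.3, 52.1, 81.6, 55.3 and 33.1 and at 32.9, 29.1, 32.0, 17.1 and 20.8, again without overlap although the margin was narrow (-1.003 ± 0.393, adjusted p = 0.0246). Ccnb2 fell by 1.81 (adjusted p = 0.00662) and Ccna2 by 1.20 (adjusted p = 0.031).

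Among kinetochore genes, Cenpe, a kinetochore motor, fell by 1.88, Cenpf by 1.83, Nuf2 by 1.79 and Ttk by 1.62, and the other 3 were not called. Nuf2 ran from 4.71 to 32.5 normalized counts in vehicle livers and from 0 to 7.62 with CCl4, and Ttk from 0 to 15.6 and from 0 to 4.04. Both overlapped. Their CCl4 medians of 1.53 and 1.71 were near the level of 3 reads (1.16 to 6.02 over the libraries), so the size of either fall is uncertain. The ranges of Cenpe also overlapped, and those of Cenpf did not. Hmmr had the largest fall, 2.17, and was at 17.3, 27.8, 73.3, 17.2 and 5.93 normalized counts in vehicle livers against 5.07, 12.1, 0.763, 2.57 and 4.38 with CCl4, which overlapped. The kinesins Kif11, Kif20a, Kif23 and Kif4 fell, by 1.06 to 1.56, and Kif2c was not called. Anln, the actin-binding scaffold of the cleavage furrow, had the smallest adjusted p of the falls: it was at 26.7, 34.7, 55.8, 26.7 and 27.1 in vehicle livers and at 7.60, 14.3, 9.16, 8.57 and 13.1 with CCl4, without overlap (-1.58 ± 0.36, adjusted p = 0.000164). Ect2, Racgap1, Nusap1, Plk1, Cdca3 and Mki67 also fell. Mki67 went from 127, 139, 227, 109 and 88.2 to 78.5, 64.6, 37.4, 24.9 and 58.0, without overlap (-1.41 ± 0.44, adjusted p = 0.00466).

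Prc1, Ube2c and the condensin subunit Ncaph rose in the same livers. Prc1 was at 25.1, 48.6, 64.1, 49.6 and 27.1 normalized counts in vehicle livers and at 312, 87.9, 207, 143 and 243 with CCl4, with every CCl4 liver higher (2.14 ± 0.55, adjusted p = 0.000695). Ube2c was at 28.3, 24.3, 45.8, 26.7 and 12.7 and at 65.9, 101, 134, 88.3 and 49.3, also without overlap (1.66 ± 0.55, adjusted p = 0.00775). Ncaph rose by 0.95 ± 0.34 (adjusted p = 0.0129). These genes moved against Ccnb1 and Cdk1 in the same RNA. The other 4 condensin genes, all 4 passenger complex genes, Aurka and Cdc20 were not called, and neither were Bub1, Bub1b, Ndc80, Kif2c, Tpx2, Cep55, Espl1 and Top2a.

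In knockout livers at 12 h, with 4 per group, Prc1 rose from 32.6, 39.6, 23.9 and 23.1 normalized counts to 67.3, 197, 303 and 272, without overlap (2.61 ± 0.62, adjusted p = 0.000359). Prc1 is also the gene used above to show how the libraries left out stood, so this separation is not independent of leaving them out. Ube2c rose by 1.48 ± 0.61 (adjusted p = 0.0416) and Kif11 fell by 1.03 (adjusted p = 0.0491). These 3 genes were all the members called, where 46.7% of all genes were, and all 3 were called in wild type in the same direction. With all 80 libraries 0 of 41 were called. The count was 1 without CCl4 replicate 2 or 3 or vehicle replicate 4 or 5, and 5 without CCl4 replicate 1. Ccnb1 was at 20.5, 37.3, 7.36 and 9.90 in vehicle livers and at 26.0, 8.86, 7.73 and 7.50 with CCl4, which overlapped (-0.48 ± 0.69, adjusted p = 0.594). The median difference over the list was -0.14 in knockout. The difference between the genotypes was itself tested and called for 0 of 41 genes at 12 h (limma, 0 at unadjusted p under 0.05), with a median of 0.93 on the log2 scale and 36 of 41 above 0.

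Over all genes at 12 h, 29% were higher and 29.4% lower in wild type, and 23.6% and 23.1% in knockout. Of 26 S phase genes, 13 rose and 2 fell in wild type, and 12 rose and 2 fell in knockout, with medians of 0.86 and 0.56. Cdt1, which licenses replication origins, rose by 2.98 ± 0.29 in wild type and 2.41 ± 0.33 in knockout, Mcm7 by 1.02 ± 0.13 and 0.67 ± 0.15, and Pcna by 1.05 ± 0.15 and 0.76 ± 0.17. Of the other G2/M genes, 7 rose and 10 fell in wild type, and 9 rose and 3 fell in knockout. The risers included the inhibitory kinases of Cdk1, Wee1 (3.21 ± 0.47 in wild type and 2.56 ± 0.52 in knockout) and Pkmyt1 (2.54 ± 0.30 and 2.21 ± 0.34), with Cks1b and Trip13. Of the 19 regulators, 6 rose and 4 fell in wild type and 5 rose and 3 fell in knockout. Trp53 rose by 1.80 ± 0.12 and 1.37 ± 0.14, E2f4 by 1.37 ± 0.13 and 1.18 ± 0.15 and E2f3 by 1.12 ± 0.16 and 1.23 ± 0.18, and the DREAM pocket protein gene Rbl2 fell by 1.45 and 1.41. At this time 7 of 7 hepatocyte markers fell in both genotypes, their summed level being 1635700 to 3374900 normalized counts in wild type CCl4 livers against 4454900 to 5989100 in vehicle livers. All 6 sinusoidal endothelial markers fell in wild type and 3 of 6 in knockout, with sums of 2497 to 4594 with CCl4 against 5114 to 11269 in wild type and 3744 to 5325 against 6088 to 9279 in knockout. Of 8 monocyte and macrophage markers 2 rose in each genotype, with wild type sums of 4061 to 7074 with CCl4 against 1806 to 4274. The part of any of these in the fall of the mitotic genes was not tested.

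The promoter elements shown above were counted in the genes that fell at 12 h and in the others, with no test. Of the 18 genes that fell in wild type and had a promoter in the table, 14 held TTTGAA and 15 held CCAAT. Of the other 17, 14 held TTTGAA and 11 held CCAAT. Ccnb2, Cdk1, Prc1 and Ube2c all held both elements, and the first pair fell while the second pair rose.

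**Figure D4:**
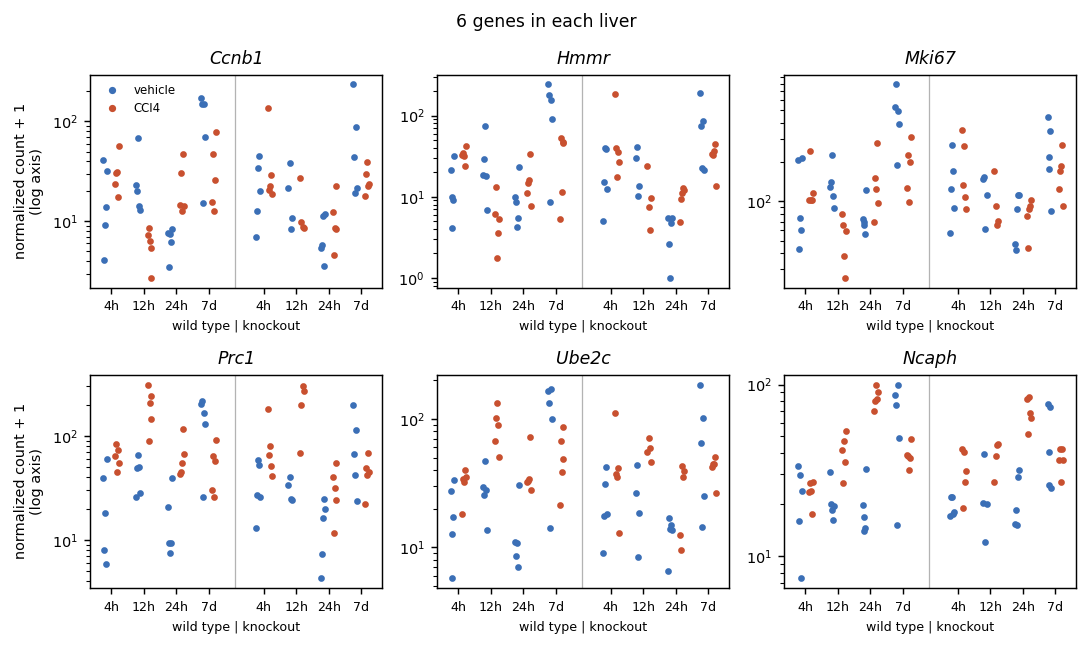
Ccnb1, Hmmr, Mki67, Prc1, Ube2c and Ncaph in each liver (points, normalized count + 1 on a log axis) by genotype and time, vehicle in blue and CCl4 in red, without the 2 libraries left out. At 12 h in wild type CCl4 livers are below all vehicle livers for Ccnb1 and Mki67 and above them for Prc1 and Ube2c.

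At 24 h the direction was upward in both genotypes. In wild type 15 of 41 genes were higher with CCl4, where 26.2% of all genes were higher, and none was lower, where 25% of all genes were. In knockout 13 of 41 were higher, where 21.1% of all genes were higher, and none was lower, where 23% of all genes were. The medians were 0.79 and 0.86 on the log2 scale, against 0.04 and 0.02 over all genes. The genes called in both were Incenp, Cdca8, Bub1b, Smc2, Smc4, Ncaph and Espl1, 7 genes or 46.7% of the wild type and 53.8% of the knockout calls. The same overlap over all genes is not given here. The vehicle livers at 24 h had the lowest median sums of the vehicle course, and they also serve in the comparison of 7 days with 24 h above.

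The condensin subunit Ncaph had the largest rise of the 41 genes at this time in both genotypes. It was at 18.8, 15.9, 13.1, 13.5 and 31.0 normalized counts in wild type vehicle livers and at 69.3, 79.4, 99.0, 81.0 and 89.9 with CCl4, with no overlap (2.18 ± 0.34, adjusted p = 1.62e-07). In knockout it was at 14.3, 17.5, 14.1, 27.9 and 30.7 and at 81.4, 50.5, 83.2, 67.2 and 62.7, again without overlap (1.73 ± 0.34, adjusted p = 2.4e-05). Smc4 was at 258, 296, 304, 272 and 316 in wild type vehicle livers and at 425, 427, 456, 531 and 386 with CCl4 (0.62 ± 0.15, adjusted p = 0.000627), and in knockout at 219, 261, 254, 258 and 323 and at 352, 326, 363, 362 and 360 (0.43 ± 0.15, adjusted p = 0.0189). Neither pair of groups overlapped. Smc2, its partner ATPase, rose by 1.14 ± 0.22 and 1.11 ± 0.22. Ncapg and Ncapg2 rose in knockout (1.51 ± 0.59 and 1.13 ± 0.32) and were not called in wild type (adjusted p of 0.557 and 0.167).

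In the passenger complex, Incenp rose by 1.12 ± 0.27 in wild type and 0.95 ± 0.27 in knockout, and Cdca8 by 0.88 ± 0.29 and 1.10 ± 0.29. Birc5 and Aurkb were not called in either. Birc5 was at 24.4, 11.7, 20.7, 25.6 and 45.7 normalized counts in wild type vehicle livers and at 20.1, 20.6, 31.9, 41.2 and 9.26 with CCl4, so that members of this complex differed among themselves (-0.08 ± 0.51, adjusted p = 0.902). Bub1b rose by 0.96 ± 0.36 and 0.90 ± 0.36, and Espl1 by 1.44 ± 0.51 and 1.27 ± 0.51.

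Prc1 rose by 2.13 ± 0.55 in wild type (adjusted p = 0.000939), from the 24 h vehicle values given above to 42.5, 44.3, 54.3, 117 and 66.1 normalized counts. In knockout it was at 39.3, 10.8, 30.7, 23.5 and 53.9 and was not called (1.26 ± 0.55, adjusted p = 0.0575). Ccnb1 (1.70 ± 0.62), Ube2c (1.68 ± 0.55), Cdc20 (1.59 ± 0.64), Plk1 (1.52 ± 0.62), Tpx2 (1.36 ± 0.52), Bub1 (1.34 ± 0.58) and Cdk1 (0.93 ± 0.39) also rose in wild type and were not called in knockout. Ttk, Racgap1, Aurka and Ect2 rose in knockout, by 0.96 to 1.54, and were not called in wild type. The test of the difference between genotypes called 0 of 41 genes at 24 h (limma, 0 at unadjusted p under 0.05). Against the vehicle livers of the same time, Cdk1, Ccnb1 and Plk1 fell at 12 h and rose at 24 h in wild type. Prc1, Ncaph and Ube2c rose at both times. The vehicle level moved as well: Plk1 medians at 12 h and 24 h were 22.0 and 5.27 in vehicle livers and 10.8 and 17.0 with CCl4. The falls of Cdk1 and Plk1 were not called without vehicle replicate 3 at 12 h. The rises of Cdk1, Ccnb1 and Plk1 were not called without CCl4 replicate 4 at 24 h. The share of all genes with either pattern is not given here.

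The wild type result at 24 h leaned on particular livers. CCl4 replicate 4 was the highest of its group for 37 of 41 genes, with a sum of 3564 normalized counts against 1714 to 2322 in the other 4. Its B cell markers summed to 5346 normalized counts against 160 to 325, and its erythroid markers to 44704 against 2720 to 7796. Without it 7 of 41 genes were called, all among the 15: Incenp, Cdca8, Prc1, Smc2, Smc4, Ncaph and Ube2c, with a median of 0.54. Cdk1, Ccnb1, Plk1 and Cdc20 were no longer called. Fewer livers can lower the calls of any gene, and the share of all genes called is not given for these settings. Without vehicle replicate 3, 8 were called. Without the mice numbered below 7000, which left 1 vehicle liver at 24 h, 0 were called and the median was -0.08. In knockout the count was 5 without vehicle replicate 1: Incenp, Cdca8, Smc2, Ncapg2 and Ncaph. It was 8 without CCl4 replicate 5 or vehicle replicate 2.

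Of the 26 S phase genes, 15 rose and 2 fell at 24 h in wild type and 20 rose and 2 fell in knockout. Cdt1, Ccne1 and Fen1 rose in both, by 1.57 to 2.64, and Mcm10 fell in wild type by 2.26. Of the 35 other G2/M genes, 18 rose and 2 fell in wild type and 15 rose and 2 fell in knockout, with Cks1b at 1.67 ± 0.24 and 1.28 ± 0.24 and Ckap2 at 3.08 ± 0.56 and 2.60 ± 0.56. Of the 19 regulators, 9 rose and 1 fell in wild type and 7 rose and 2 fell in knockout, beside shares over all genes of 26.2% and 25% in wild type and 21.1% and 23% in knockout. Trp53 rose by 1.10 ± 0.12 and 1.01 ± 0.12 and E2f4 by 1.01 ± 0.13 and 0.69 ± 0.13, and Rbl2 fell by 0.97 and 0.84. Monocyte and macrophage markers moved with these livers: 6 of 8 rose in wild type and 7 of 8 in knockout, with sums of 16558 to 24334 in wild type CCl4 livers against 3770 to 8653 in vehicle livers. Hepatocyte markers fell for 3 of 7 and 4 of 7 genes. The part of either in the mitotic genes was not tested.

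**Figure D5:**
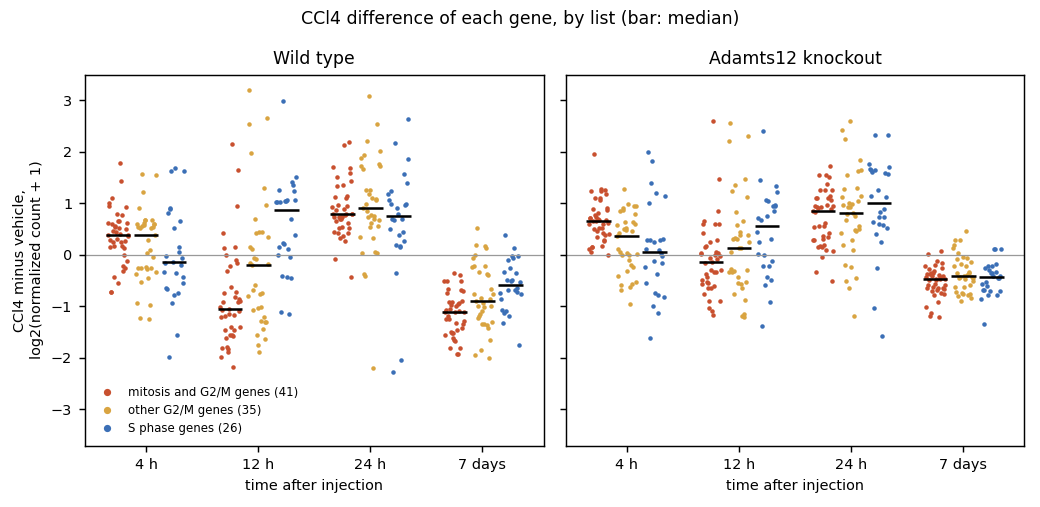
CCl4 minus vehicle difference of log2(normalized count + 1) for each of the 41 mitosis and G2/M genes (red), 35 other G2/M genes (yellow) and 26 S phase genes (blue) by time, with the median of each list as a bar. At 12 h in wild type the medians are -1.06 for the 41 genes and 0.86 for the S phase genes, and at 24 h both are above 0.

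At 7 days all 41 genes were lower in wild type CCl4 livers than in vehicle livers, by a median of 1.11 log2 units that ran from -1.92 to -0.35, but only Ect2, the activator of RhoA at the cleavage furrow, passed the test. It was at 273, 207, 83.0, 231 and 165 normalized counts in vehicle livers and at 26.3, 56.1, 30.2, 49.7 and 96.0 with CCl4, overlapping through vehicle replicate 3 and CCl4 replicate 5 (-1.92 ± 0.39, adjusted p = 0.0159). Only 0.055% of all genes were called in this comparison, and 28 of the 41 had an unadjusted p under 0.05. Mice numbered below 7000 gave 4 of the 5 CCl4 livers and 2 of the 5 vehicle livers here. Without vehicle replicate 3, 6 of 41 were called (Kif11, Kif20a, Anln, Ect2, Smc2 and Smc4), and without CCl4 replicate 4 the count was also 6. Without CCl4 replicate 1 or 3 or vehicle replicate 1 or 4 none was. The difference is one of CCl4 against the high 7 day vehicle livers: Cdc20 was at 26.3, 107, 53.0, 73.8 and 196 with CCl4, above the 24 h vehicle livers. In knockout 0 of 41 were called (limma, 2 at unadjusted p under 0.05), where 0.694% of all genes were, with a median of -0.47. Cdc20 was at 72.0, 91.6, 79.2, 82.4 and 67.2 in knockout CCl4 livers and between 34.2 and 550 in vehicle livers.

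Taking the 4 times together, the CCl4 difference changed with time for 33 of 41 genes in wild type, where 62.9% of all genes changed, and for 10 of 41 in knockout, where 51.7% did. The wild type count was 11 without the mice numbered below 7000. The knockout count was 5 with all 80 libraries, 6 without vehicle replicate 1 at 7 days and 16 without vehicle replicate 5 at 7 days. In all, 6 members were called at no time after CCl4 in either genotype: Aurkb, Birc5, Ndc80, Kif2c, Cep55 and Top2a. The share of all genes called at no time is not given here, so the count cannot be judged against it. A gene that was not called is not shown to be unchanged.

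No member differed between the genotypes at any time or treatment by limma. The difference of the CCl4 effect between genotypes called 0 of 41 at 4 h, 12 h, 24 h and 7 days, with 1, 0, 0 and 2 genes at unadjusted p under 0.05. Among all genes the share called was 0.00687%, 0%, 0% and 0.00687%. Knockout against wild type in CCl4 livers called 0 of 41 at each time (2, 3, 1 and 0 genes at unadjusted p under 0.05), where 0.584%, 0.0206%, 0.0137% and 0% of all genes were called. In vehicle livers the count was again 0 at each time (1, 0, 3 and 3 genes at unadjusted p under 0.05), where 0.343%, 0%, 0% and 0.055% were. The largest median difference of these 8 comparisons was in vehicle livers at 7 days, where knockout was below wild type for all 41 genes with a median of -0.66 and a smallest adjusted p of 0.55. The standard errors over the 41 genes ran from 0.15 to 0.74 between the genotypes and from 0.22 to 1.05 for the difference of the CCl4 effect, and they limit what these tests could resolve.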

How the data were processed

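The deposited table held normalized signal: per the submitters' processing notes, reads were aligned with STAR, counted with HTSeq on the mouse build GRCm38 and scaled with DESeq2, and versions are not given in the sources used here. Dividing by the size factor per library left each library's values as whole multiples of a step (tolerance 0.01), from which read totals and the limit of 3 reads behind a value of 0 were taken. A gene was tested if 5 or more libraries held 10 or more normalized counts, which left 14558. Values were analysed as log2(value + 1) with limma 3.58.1 in R 4.3.3, as 16 group means over 78 libraries, a trended variance prior and Benjamini-Hochberg adjustment within each contrast. Tests were two-sided, and an adjusted p under 0.05 was called. A fold is on that log2 scale, which understates changes of low genes. The replicates are separate mice. Each gene had a single variance between mice, pooled over the groups, so p is judged against a spread common to all groups. It is not judged against the spread of the compared groups alone. The SD of the median log2 level over the mitosis and G2/M genes differed between groups. In vehicle livers at 7 days it was 1.10 in wild type and 0.99 in knockout, against 0.58 and 0.33 at 24 h.

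The script was tested on simulated data for CCl4 against vehicle in wild type at 24 h (14559 genes). It recovered 13.4% of genes changed 1.5-fold, 83.6% at 2-fold and 100% at 4-fold, with 7 false calls among 138. Recovery was not worked out by expression level or for the mitosis and G2/M genes. Their levels differed widely, with medians of 6.53 normalized counts for Ccnb1 and 296 for Smc4 in wild type vehicle livers at 24 h. The rates therefore do not show how often a change of these genes would be called. Named genes were 17 fixed members, the 5 largest rises and falls per comparison and up to 4 genes of each other list. The members and lists were chosen with earlier results of these data known. Figures and tables used Python 3.11.15. Cdc25c, Depdc1a, Kif14, Ska1 and Lin54 were not analysed here.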

Additional observations from a re-analysis of the deposited data

Results flagged for a closer look

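Among 112 sets of livers (16 groups, each for the median over the 41 genes and for Cdk1, Ccnb1, Cdc20, Plk1, Prc1 and Smc4), 9 held a liver whose gap to its nearest neighbour was an unusually large share of the group's range by Dixon's criterion, and chance alone flags about 1 set in 20. The values are normalized counts. Cdk1 was low in wild type CCl4 replicate 4 at 4 h (30.1). Plk1 was low in wild type CCl4 replicate 4 at 12 h (1.71) and in knockout CCl4 replicate 5 at 7 days (20.6). Smc4 was high in wild type CCl4 replicate 5 at 12 h (383) and in knockout CCl4 replicate 1 at 12 h (332), and low in knockout CCl4 replicate 2 at 24 h (326). Prc1 was low in wild type vehicle replicate 3 at 7 days (25.1), the liver that was lowest for all 41 genes. Ccnb1 was high in knockout CCl4 replicate 1 at 4 h (137) and in knockout CCl4 replicate 1 at 12 h (26.0). The median over the 41 genes was flagged in none of the 16 groups.

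Outside the tests, Prc1 was at 433 normalized counts in knockout vehicle replicate 1 at 12 h, a library left out because it stood with the CCl4 livers.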

How the results depend on the processing

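Counts below are of the 41 genes called. The share of all genes called is not given for these settings or for the livers left out above. Leaving out livers can lower the calls of any gene, so a lower count is not shown to be particular to these genes. With all 80 libraries the count for CCl4 in knockout at 12 h went from 3 to 0, the change of the CCl4 effect over time in knockout from 10 to 5, knockout vehicle livers at 12 h against 4 h from 0 to 1 and at 24 h against 12 h from 1 to 2. A pseudocount of 8 left 1 of 3 for CCl4 in wild type at 4 h and 0 for vehicle livers at 24 h against 12 h in both genotypes. Quantile normalization gave 3 instead of 1 for CCl4 in wild type at 7 days, 2 instead of 1 and 7 instead of 3 for wild type vehicle livers at 12 h against 4 h and 24 h against 12 h, and 1 instead of 0 for knockout at 12 h against 4 h. Without the wild type mice numbered below 7000, CCl4 in wild type gave 0 at 24 h and 0 at 7 days, its change over time 11, vehicle livers over time 10, and 24 h against 12 h and 7 days against 24 h gave 0 each. Cdk1 reversed there at 24 h (-0.33, adjusted p = 0.772). That setting leaves fewer samples, and the median difference at 24 h itself went from 0.79 to -0.08. The parts of sample size and of the mouse numbers in this were not tested. The cause was not tested in the other cases either. Fitting each time alone gave 0 for wild type at 7 days and 2 and 5 for knockout at 4 h and 12 h. Without the pair of libraries with high B cell markers, chosen after seeing the data, the counts were 7 for wild type at 24 h, 2 at 7 days, 5 for wild type vehicle livers at 24 h against 12 h and 21 for knockout vehicle livers over time.

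Leaving out each replicate in turn, CCl4 in wild type gave 1 to 4 at 4 h (1 without replicate 4 of CCl4 or of vehicle), 16 to 23 at 12 h, 7 to 16 at 24 h (7 without CCl4 replicate 4, 8 without vehicle replicate 3) and 0 to 6 at 7 days. The 7 day count was 0 without CCl4 replicate 1 or 3 or vehicle replicate 1 or 4, and 6 without CCl4 replicate 4 or vehicle replicate 3. In knockout it gave 1 to 6 at 4 h (4 without CCl4 replicate 5, 5 and 6 without vehicle replicates 3 and 4). At 12 h it gave 1 to 5: 1 without CCl4 replicate 2 or 3 or vehicle replicate 4 or 5, and 5 without CCl4 replicate 1. At 24 h it gave 5 to 16: 5 without vehicle replicate 1 and 8 without CCl4 replicate 5 or vehicle replicate 2. Wild type vehicle livers gave 0 to 3 at 12 h against 4 h (0 without replicate 4, 2 without replicate 1 or 2 and 3 without replicate 5 at 4 h). At 24 h against 12 h they gave 0 to 6: 0 without replicate 3 of either time, 1 without replicate 4 at 12 h or replicate 2 or 4 at 24 h, 5 without replicate 5 at 24 h and 6 without replicate 5 at 12 h. Knockout vehicle livers gave 0 to 1 in both steps: 1 at 12 h against 4 h without replicate 3 at 12 h or replicate 1 at 4 h, and 0 at 24 h against 12 h without any single liver of these groups except replicate 5 at 24 h. At 7 days against 24 h the counts were 35 to 41 in wild type and 26 to 37 in knockout. Over time, vehicle livers gave 39 to 41 in wild type and 21 to 37 in knockout (21 without replicate 1 at 7 days). The CCl4 effect over time gave 32 to 39 in wild type and 6 to 16 in knockout (6 without vehicle replicate 1 and 16 without vehicle replicate 5, both at 7 days). Every genotype comparison gave 0 in each of these settings.

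The replicate block gave 14 calls instead of 15 for wild type at 24 h, 2 instead of 3 for knockout at 12 h and 39 instead of 40 for wild type vehicle livers at 7 days, and no count moved by over 1.5 times. The numbers did not pair the livers: the median correlation of deviations was -0.0056 between livers of equal number and 0.00098 between others, and 15 of 78 livers were closest to their own number. Tests on recovered counts (edgeR with TMM and with DESeq2 size factors) were not run. A floor of 3 reads stood at 1.16 to 6.02 normalized counts, and a level at or below it could not be told from 0.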
